A study of Mus musculus with 28 samples.

Results

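The genes described here make and move cholesterol and fatty acids. They are 36 of the 24015 genes in the count table, chosen by name for their place in the pathway: 18 enzymes of sterol synthesis, 5 regulators of the SREBP pathway, 8 genes of fatty acid synthesis and desaturation, and 5 genes of sterol transport, efflux and storage. Every named gene was found in the table. Of the 36 genes, 35 had enough counts to be tested. The exception was Hmgcs1, the synthase that makes HMG-CoA, which was listed at 0 in all 28 libraries.

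RNA was measured in 28 libraries of 100 sorted mouse embryo cells, in 9 populations over 3 embryonic days (E8.5, E9.5 and E10.5). All populations carried the same transgene, named 23GFP in the labels. Endothelial cells (EC) and hemogenic endothelium (HE), the endothelium that gives rise to blood, were sorted on each day. A population named pro-HSC/HPC was sorted at E9.5, and populations named pre-HSC I and pre-HSC II, precursors of hematopoietic stem cells, at E10.5. On the first 2 days the tissue was PAS+VU, in the labels' wording, and on the last day AGM+VU, so day and dissected region cannot be told apart between E9.5 and E10.5. Each population had 3 libraries, apart from 4 for E8.5 HE. The series compares cell populations along the path from endothelium to blood stem cell precursors, and the same comparisons are made here. The sources used here give neither the sort gates nor whether cells of several embryos were pooled, and the p-values therefore measure only the spread between these libraries, which may be technical.

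Cholesterol is built from acetyl-CoA through mevalonate, farnesyl pyrophosphate, squalene and lanosterol. When sterols are scarce in the endoplasmic reticulum, Scap carries the SREBP proteins, encoded by Srebf1 and Srebf2, to the Golgi, where they are cut to active transcription factors that raise the synthesis genes. When sterols are plentiful, the Insig proteins hold Scap back, and oxysterols activate LXR receptors, which raise the efflux transporters Abca1 and Abcg1. Proteolytic control means that the RNA of Srebf1 or Srebf2 is not a measure of SREBP activity.

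Library totals ran from 16308918 to 31405603 counts, with 13935 to 16050 genes detected. After scaling by library size to CPM, 3 counts stood for 0.108 to 0.188 CPM. The 36 genes together took 0.147% to 0.327% of the counts of a library, with the lowest share in 1 library of E8.5 EC and the highest in 1 of E10.5 HE. The E10.5 HE libraries ran from 0.257% to 0.327%, and those of E10.5 EC from 0.303% to 0.314%. A list of 6 endothelial markers summed to 813 to 1112 CPM in E8.5 EC, to 2842 to 2916 CPM in E10.5 HE, to 1216 to 2193 CPM in E8.5 HE, to 825 to 1120 CPM in pre-HSC I and to 269 to 343 CPM in pre-HSC II, with none of the 6 at 0 in any population. Runx1, a regulator of blood cell emergence, averaged 2.76 CPM ± 1.16 (SD, n = 4) in E8.5 HE against 3.61 CPM ± 2.07 (SD, n = 3) in E8.5 EC, so it was no higher in the cells labelled HE on that day. At E10.5 it averaged 45 CPM ± 6.61 in HE and 2.17 CPM ± 0.351 in EC (SD, n = 3 each). Over 8 markers of emerging blood, Runx1 among them, the log2 difference of HE from EC at E8.5 was positive for 5 and negative for 3, with a median of 0.36. At E10.5 it was positive for 7 and negative for 1, with a median of 3.08. Markers of yolk sac endoderm and liver, tissues rich in sterol synthesis, summed to no more than 76.9 CPM in any library. In pro-HSC/HPC, hemoglobin genes took 1.11% of counts in replicate 2 and 0.422% in replicate 3. In RNA from pooled cells, fewer cells of a type and less RNA per cell cannot be told apart.

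Of the 35 tested genes, 34 had counts in each of the 28 libraries, and Fads2 was at 0 in replicate 3 of E8.5 EC, where 3 counts would be 0.188 CPM. Per kilobase of exon, the mean over the 9 populations was highest for Fdps, the farnesyl pyrophosphate synthase, at 113 CPM per kb. It was 73.4 for Insig1, 64.1 for Msmo1 and 57.5 for Acat2 on the same scale. The lowest were Srebf2 at 2.02, Scd1 at 2.59 and Srebf1 at 2.65 CPM per kb. The mean level was highest in E10.5 HE for 11 of the 35 genes, in E10.5 EC for 8 and in E8.5 HE for 6. It was lowest in E8.5 EC for 14 and in pre-HSC II for 13. Scd1 spanned the widest range of population means, 131-fold from pre-HSC II to E9.5 HE. That ratio rests on 13 counts in pre-HSC II, whose exact 95% Poisson interval gives 76.6-fold to 246-fold for counting error alone. It was followed by Abca1, 13.3-fold from E8.5 EC to E10.5 EC, and Soat1, 8.01-fold from pre-HSC II to E8.5 EC. In each of these ranges the libraries of the highest and lowest population did not overlap. These ranges are descriptions of levels, without a test.

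**Figure D1:**
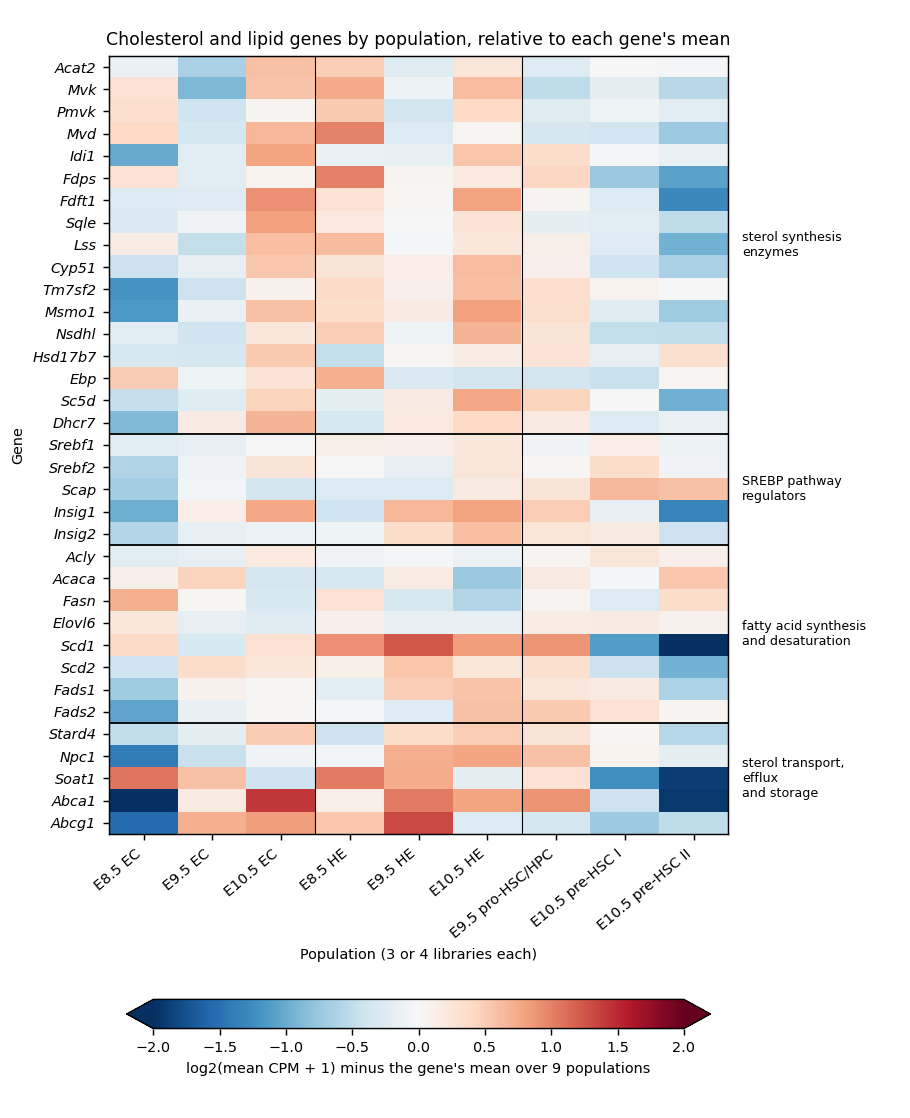
Level of the 35 tested genes (vertical axis, in the 4 groups by role) in the 9 populations (horizontal axis), as log2 of the mean CPM plus 1 minus that gene's mean over the populations; colors reach their ends at 2 in either direction. E8.5 EC and pre-HSC II are the lowest population for 14 and 13 of the 35 genes, and Scd1 in pre-HSC II and Abca1 in E8.5 EC lie past the dark blue end.

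Hmgcs1 could not be measured in these files. Its exons were listed only on an unplaced contig of chromosome 13 in mm9 (22 exon rows, 7154 bases). The 60 genes listed only on such contigs were at 0 in all libraries without exception, against 11.1% of the other 23955 genes, so the 0 says nothing about whether the cells expressed Hmgcs1.

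Calls over the 16 comparisons were made at a Benjamini-Hochberg adjusted p under 0.05 over 15238 genes with edgeR's quasi-likelihood test, and "called" below means past that threshold. Differences are log2 with the standard error. The count of genes called was read against the share of all tested genes called in the same comparison. In pre-HSC II against HE at E10.5, 16 of 35 genes were called, 45.7% against 21.4% of all genes: 15 were lower, 42.9% against 12.7%, and 1, Acaca, was higher, 2.86% against 8.75%. In E8.5 HE against EC, 5 were called, each higher in HE, or 14.3% against 6.81% of all genes called in either direction and 5.08% called higher. In pre-HSC I against HE, 4 were called, each lower, or 11.4% against 6.88% in either direction and 3.8% lower. In pre-HSC II against pre-HSC I, 2 were called, each lower, or 5.71% against 4.42% in either direction and 4.28% lower. In pre-HSC II against HE, the libraries of 21 of the 35 genes lay below those of HE without overlap and those of 2 lay above, where 19.2% and 18.6% of all genes did.

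No gene of the 35 was called between HE and EC at E9.5, where 0.302% of all genes were called, or at E10.5, where 3.48% were. At an unadjusted p under 0.05, 997 and 2430 of the 15238 genes passed. Of the 35 there were 3 in each, and DESeq2 called 0 in both. At E9.5 these were Scd1, Npc1 and Stard4, with log2 differences of 1.67, 1.25 and 0.56, and at E10.5 Abcg1, Sqle and Insig2, with -1.12, -0.55 and 0.73. Abcg1 was called at E10.5 with only the compared groups in the model (adjusted p 0.0234). None was called in pro-HSC/HPC against HE at E9.5 either, where 0.656% of all genes were called. Of the 35, 1 had an unadjusted p under 0.05, as did 1060 of the 15238 genes, and DESeq2 called 1, Abcg1. Between days, 6 were called in E9.5 EC against E8.5 EC, each higher at E9.5, where 19.7% of all genes were called and 10.1% called higher. In E9.5 HE against E8.5 HE 2 were called, Stard4 higher and Pmvk lower, with 6.54% of all genes called, 2.97% higher and 3.58% lower. In E10.5 HE against E9.5 HE 2 were called, both lower, with 3.64% and 2.15% lower. In E10.5 EC against E9.5 EC 1 was called, lower, with 0.761% and 0.453% lower, and in pre-HSC I against pro-HSC/HPC 2, both lower, with 1.45% and 1.22% lower.

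By edgeR, 20 of the 35 genes were called in at least 1 of the 12 pair comparisons and 15 in none. The 15 were the early enzymes Acat2, Mvk, Mvd, Idi1 and Fdps, the later enzymes Hsd17b7 and Ebp, the regulators Srebf1, Srebf2 and Scap, the fatty acid genes Acly, Fasn, Elovl6 and Fads2, and the lysosomal cholesterol exporter Npc1. DESeq2 called 5 of the 15: Npc1 higher in E8.5 HE than in EC, Fasn higher and Mvk lower in pre-HSC II than in HE, Mvd and Ebp lower in E9.5 than in E8.5 HE, and Mvk lower in E9.5 EC than at E8.5 and higher at E10.5 than at E9.5. Fdps was called by edgeR without replicate 1 of pre-HSC I (log2 difference from HE -2.32, adjusted p 0.0350) or of pre-HSC II (-2.11, adjusted p 0.0469).

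**Figure D2:**
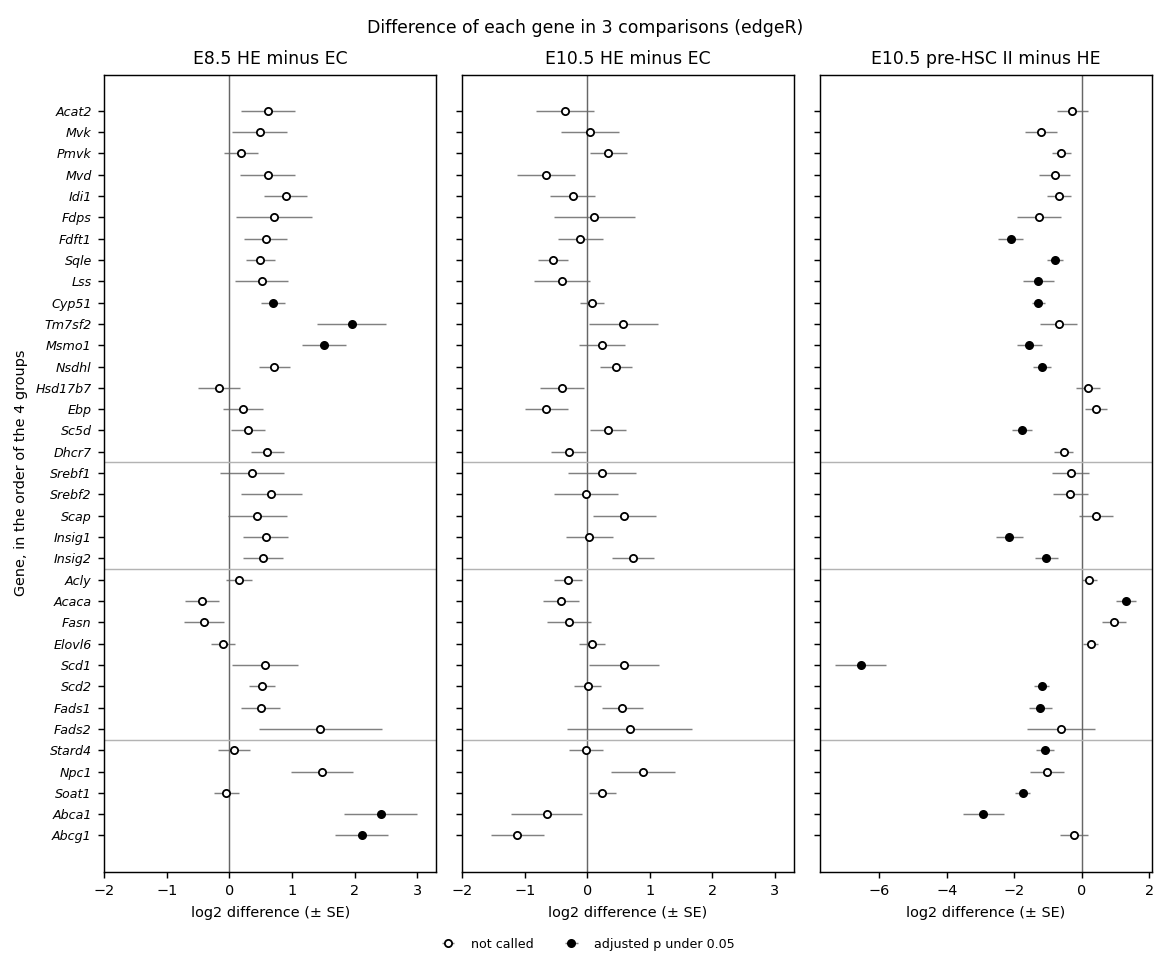
Log2 difference (horizontal axes, with standard error bars) of each of the 35 genes (vertical axis, ordered by role) in 3 comparisons; filled points are called, and the right panel has a wider axis than the other two. Points lie mostly right of 0 in E8.5 HE against EC, on both sides at E10.5, and mostly left of 0 in pre-HSC II against HE, where Scd1 stands at -6.56.

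The sterol synthesis enzymes had their lowest mean, as a group, in pre-HSC II, which was the lowest population for 8 of the 17 tested. The mean log2(CPM + 1) of the 17 tested enzymes was 5.96 ± 0.27 in E10.5 EC, 5.89 ± 0.22 in E10.5 HE, 5.20 ± 0.33 in the first pre-HSC population and 4.99 ± 0.28 in the second (SD, n = 3 each). In E8.5 HE it was 5.79 ± 0.34 (SD, n = 4), and in E8.5 EC 5.23 ± 0.19. The libraries of E10.5 HE, 5.75 to 6.15, lay above those of pre-HSC II, 4.73 to 5.28, without overlap, whereas those of E8.5 HE, 5.28 to 6.02, overlapped those of E8.5 EC, 5.01 to 5.37. The pre-HSC II libraries overlapped those of pre-HSC I, 4.95 to 5.57, of E8.5 EC and of E9.5 EC, 5.05 to 5.39. Their highest reached the lowest of E8.5 HE.

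**Figure D3:**
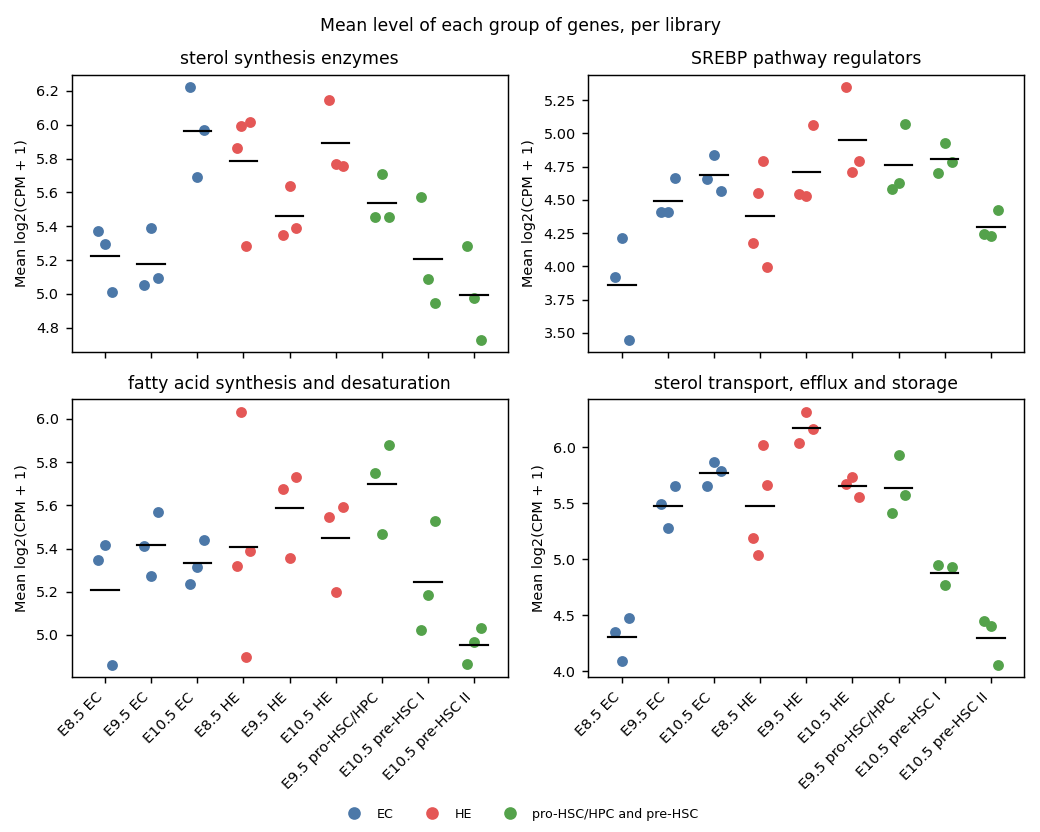
Mean log2(CPM + 1) (vertical axes, with a scale for each panel) of the genes of each role in every library (points), with the mean of each population (bars), across 9 populations (horizontal axes). Sterol synthesis enzymes lie between 4.73 and 5.28 in pre-HSC II and between 5.75 and 6.15 in E10.5 HE, and the means of the transport genes lie between 4.30 in E8.5 EC and pre-HSC II and 6.17 in E9.5 HE.

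In pre-HSC II against HE at E10.5, 7 of the 17 enzymes were lower and the median log2 difference was -0.81, against 0.018 over all genes tested. The 7 all act after farnesyl pyrophosphate, on the branch that leads only to sterols: Fdft1, Sqle, Lss, Cyp51, Msmo1, Nsdhl and Sc5d. They were 7 of 11 such enzymes, with a median of -1.19, and none of the 6 tested enzymes up to farnesyl pyrophosphate was called by edgeR, with a median of -0.75. Of those 6, Mvk and Pmvk had an unadjusted p under 0.05, as did 5057 of all 15238 genes, and DESeq2 called Mvk. That division of the pathway was made after the values were seen, and the difference between its segments was not tested. All 6 endothelial markers were also lower in this comparison, as were 3 of 6 mesenchyme markers, which summed to 160 to 623 CPM in HE and 28.1 to 34.1 CPM in pre-HSC II. Of 6 markers of cycling cells, 4 were higher. Markers of macrophages and granulocytes summed to 6.71 to 7.12 CPM in HE and 346 to 462 CPM in pre-HSC II. The part of any of these in the enzymes' differences was not tested.

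Promoter stretches are shown for 5 of these 7 enzymes, those for which RefSeq (build GRCm38.p6) gave a promoter window, because these genes were lower together. Each run is the 170 bases before the annotated start, 5′ to 3′ on the gene's strand, and capitals mark the letters CCAAT or their complement ATTGG, the box bound by the factor NF-Y, a partner of SREBP on sterol genes. The stretches lie at chr5:4104698-4104867 (minus strand) for Cyp51, chr10:76531435-76531604 (plus) for Lss, chr8:64733579-64733748 (minus) for Msmo1, chrX:72918351-72918520 (plus) for Nsdhl and chr9:42264301-42264470 (minus) for Sc5d.
Cyp51: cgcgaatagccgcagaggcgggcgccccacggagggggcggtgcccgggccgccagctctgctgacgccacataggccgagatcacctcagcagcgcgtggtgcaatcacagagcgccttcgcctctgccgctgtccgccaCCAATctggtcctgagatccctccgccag
Lss: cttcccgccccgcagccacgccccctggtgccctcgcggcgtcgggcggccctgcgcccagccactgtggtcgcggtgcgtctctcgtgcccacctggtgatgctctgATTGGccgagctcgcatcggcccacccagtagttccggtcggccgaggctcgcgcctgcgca
Msmo1: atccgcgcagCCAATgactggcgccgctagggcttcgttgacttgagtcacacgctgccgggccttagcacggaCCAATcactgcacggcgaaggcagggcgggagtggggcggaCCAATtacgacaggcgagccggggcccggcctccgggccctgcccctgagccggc
Nsdhl: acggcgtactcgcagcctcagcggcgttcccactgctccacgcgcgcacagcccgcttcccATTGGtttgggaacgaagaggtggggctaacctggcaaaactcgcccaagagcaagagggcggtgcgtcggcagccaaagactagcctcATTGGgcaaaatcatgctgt
Sc5d: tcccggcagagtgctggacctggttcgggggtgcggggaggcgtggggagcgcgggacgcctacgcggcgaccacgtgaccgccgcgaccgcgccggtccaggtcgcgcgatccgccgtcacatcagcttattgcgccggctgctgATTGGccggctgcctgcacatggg
Msmo1 holds the letters 3 times on the forward strand and Nsdhl holds them 2 times on the reverse strand, with 1 match in each of the others. Over windows from 250 bases before to 50 after the start, 21 of the 27 genes described here that have a window held CCAAT on either strand, against 41.1% of 27025 genes. By role these were 14 of 15 sterol enzymes, 4 of 5 SREBP regulators, 2 of 5 fatty acid genes and 1 of 2 transport genes. The GC box letters GGGCGG were in 23 of 27, against 38.2% of all genes, and the sterol regulatory element written as TCACNCCAC was in 1 of 27, Hmgcs1, against 1.44%. Other spellings of that element were not searched, so a promoter without these letters, such as that of Cyp51, may still hold one. None of the 3 sets of letters contains another, matches were counted on both strands, and a match is a description of the letters and not a bound site.

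Cyp51, the demethylase that acts on lanosterol (mm9 chr5:4080674-4104697), gave 98.1, 104 and 93.2 CPM in E10.5 HE, 44.6, 47.5 and 53.3 CPM in pre-HSC I, and 49.3, 40.1 and 31.3 CPM in pre-HSC II. Every HE library was above every pre-HSC library, and those of the 2 pre-HSC populations overlapped. The log2 difference from HE was -1.02 ± 0.20 in pre-HSC I (edgeR adjusted p = 0.00159) and -1.29 ± 0.20 in pre-HSC II (edgeR adjusted p = 1.88e-05). Both calls held in each alternative run.

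Fdft1, the squalene synthase that commits farnesyl pyrophosphate to sterols (mm9 chr14:63763988-63796630), gave 223, 169 and 115 CPM in HE and 53.3, 28.8 and 35.2 CPM in pre-HSC II. The groups did not overlap, and the lowest HE library was more than 2 times the highest of pre-HSC II. The log2 difference was -2.11 ± 0.37 (edgeR adjusted p = 0.000107). Of its exon length, 27.0% overlaps Ctsb, a lysosomal protease gene on the opposite strand. Ctsb averaged 307 CPM ± 17.6 in HE and 92.6 CPM ± 13.3 in pre-HSC II (SD, n = 3 each), and its part in the Fdft1 values was not tested.

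Sc5d, the desaturase that introduces a late double bond of the sterol ring, gave 123, 132 and 85.3 CPM in HE, 70.0, 67.0 and 60.1 CPM in pre-HSC I and 31.1, 34.9 and 34.1 CPM in pre-HSC II. The 3 populations followed one another without overlap. The step from HE to pre-HSC II was -1.77 ± 0.29 (edgeR adjusted p = 5.34e-05). From pre-HSC I to pre-HSC II it was -0.98 ± 0.29 at an adjusted p of 0.0499, and this call was lost when any 1 of the 6 libraries was left out, with adjusted p from 0.082 to 0.16.

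The other 4 enzymes called in pre-HSC II against HE were smaller in difference or more scattered. Msmo1, a methylsterol oxidase, was lower by -1.55 ± 0.37 (edgeR adjusted p = 0.00280), and Nsdhl, the dehydrogenase that follows it, by -1.19 ± 0.27 (edgeR adjusted p = 0.00162). Sqle, the squalene epoxidase, was lower by -0.79 ± 0.24 and Lss, the lanosterol synthase, by -1.29 ± 0.46, with adjusted p of 0.0189 and 0.0471. The Sqle call was lost without HE replicate 1 or 2 or pre-HSC II replicate 1 or 3 (adjusted p 0.054 to 0.086), and the Lss call without any 1 of the HE replicates or pre-HSC II replicate 1 or 3 (adjusted p 0.05 to 0.18) or without the filter on low counts (adjusted p 0.057). Nsdhl was the other enzyme called in pre-HSC I against HE, where HE gave 103, 91.3 and 86.3 CPM and pre-HSC I gave 51.5, 37.6 and 35.6 CPM. These groups did not overlap, and the log2 difference was -1.17 ± 0.27 (edgeR adjusted p = 0.00647). In that comparison all 17 enzymes had a negative difference, with a median of -0.61 against 0.012 over all genes. DESeq2 also called Fdft1, Msmo1 and Scd2 lower there, and without pre-HSC I replicate 1 edgeR called Fdft1 and Msmo1 (adjusted p 0.00321 and 0.0280). Between the same populations 5 of 6 endothelial markers were lower, and 3 of 6 markers of cycling cells and 4 of 6 of macrophages and granulocytes were higher. Their part in the enzymes' differences was not tested.

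At E8.5, 3 of the 17 enzymes, Cyp51, Tm7sf2 and Msmo1, were higher in HE than in EC. The log2 difference was positive for 16 of the 17, with a median of 0.60 against 0 over all genes. Of the 6 endothelial markers, 4 were also higher in HE, with a median of 1.33, and their part in these differences was not tested. Msmo1 gave 34.6, 46.5 and 64.0 CPM in EC and 67.2, 122, 162 and 200 CPM in HE, so that the lowest HE library was just above the highest EC library. Its log2 difference was 1.51 ± 0.35 (edgeR adjusted p = 0.00818).

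Tm7sf2, a sterol reductase, gave 2.58, 2.12 and 1.38 CPM in E8.5 EC and 5.59, 12.9, 6.09 and 6.89 CPM in E8.5 HE. No library of one group reached the other, and the log2 difference was 1.95 ± 0.55 (edgeR adjusted p = 0.0282). Cyp51 gave 48.7, 47.9 and 45.3 CPM in EC and 56.0, 80.4, 77.1 and 92.5 CPM in HE, again without overlap, at a log2 difference of 0.69 ± 0.19 (edgeR adjusted p = 0.0219). With the replicate number as a block, which also takes HE replicate 4 out, the adjusted p of Cyp51 was 0.069, above the threshold. Its call was also lost without EC replicate 1, 2 or 3 or HE replicate 4 (adjusted p 0.056 to 0.068), that of Tm7sf2 without EC replicate 1, 2 or 3 or HE replicate 2 (adjusted p 0.058 to 0.1), and that of Msmo1 without EC replicate 1 (adjusted p 0.054). With only the 2 populations compared in the model, none of these 3 calls held, with adjusted p of 0.15 for Cyp51, 0.12 for Tm7sf2 and 0.081 for Msmo1, and Cyp51 was at 0.066 without the filter on low counts. Libraries of E8.5 EC had the smallest scaling factors, 0.789 to 0.811, against 0.884 to 0.941 in E8.5 HE, and the part of this in the differences was not tested.

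At E10.5 no difference between HE and EC was detected in the enzymes as a group: 8 were positive and 9 negative, with a median of -0.11 and none called by edgeR or DESeq2 and 1 at an unadjusted p under 0.05. Of all 15238 genes, 2430 were at that unadjusted level. The HE-EC difference at E10.5 minus that at E8.5 had a median of -0.87 over the 17 enzymes, with 15 of 17 negative. None of the 17 was called in that test of the change itself by edgeR, 5 had an unadjusted p under 0.05, and DESeq2 called 1, Sqle. The number of all genes at that unadjusted level is not given here, so the 5 cannot be read against it. The 2 differences share no libraries.

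Within EC, Dhcr7, a terminal reductase of cholesterol synthesis, gave 17.5, 10.1 and 9.59 CPM at E8.5 and 26.6, 28.7 and 24.5 CPM at E9.5. The days did not overlap, and the log2 difference was 1.1 ± 0.28 (edgeR adjusted p = 0.00697). Msmo1 was also higher in EC at E9.5, by 1.02 ± 0.36 at an adjusted p of 0.0488, which was lost without E8.5 replicate 1 or 2 or E9.5 replicate 2 or 3 (adjusted p 0.073 to 0.2). From E9.5 to E10.5 all 17 enzymes had a positive difference in EC, with a median of 0.74 against 0 over all genes. None was called by edgeR, 11 had an unadjusted p under 0.05, DESeq2 called 4 (Mvk, Fdft1, Sqle and Cyp51), and the libraries of 12 did not overlap, where 9.25% of all genes were higher without overlap. An unadjusted p under 0.05 was reached in either direction by 1978 of the 15238 genes. In HE over the same days, 16 of 17 were positive, with a median of 0.50 and 5 at an unadjusted p under 0.05, and none was called by edgeR, against 2 by DESeq2 (Cyp51 and Nsdhl). There 2768 of the 15238 genes reached that unadjusted level. Pmvk, a mevalonate pathway kinase, gave 110, 81.9, 52.0 and 78.9 CPM in E8.5 HE and 33.1, 52.1 and 43.6 CPM in E9.5 HE. Those groups overlapped, since the lowest E8.5 library was just under the highest at E9.5, and the log2 difference was -0.91 ± 0.28 (edgeR adjusted p = 0.0469). That call was lost without E8.5 replicate 1, 2 or 4 or any 1 of the E9.5 replicates (adjusted p 0.054 to 0.22), and was at 0.053 to 0.096 without the count filter, with the replicate block or with only the compared groups.

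Among the regulators, Insig1 and Insig2 were lower in pre-HSC II than in HE, and Srebf1, Srebf2 and Scap were called in no comparison. Insig1, which anchors Scap and is itself raised by SREBP (mm9 chr5:28397952-28405202), gave 505, 248 and 156 CPM in HE and 81.4, 64.0 and 59.2 CPM in pre-HSC II. The HE libraries were far apart, but each lay above those of pre-HSC II. The log2 difference was -2.15 ± 0.39 (edgeR adjusted p = 0.000187). Insig2 gave 41.3, 43.4 and 30.9 CPM in HE and 17.1, 27.6 and 11.1 CPM in pre-HSC II. The groups did not overlap, and the log2 difference was -1.05 ± 0.34 at an adjusted p of 0.0276, which was lost without HE replicate 1 or 2 or pre-HSC II replicate 1 or 3 (adjusted p 0.065 to 0.16). Insig1 was also higher in E9.5 EC than in E8.5 EC, where it gave 140, 223 and 208 CPM against 56.9, 80.3 and 125 CPM. The log2 difference was 1.12 ± 0.38 (edgeR adjusted p = 0.0394), and the days did not overlap. The call was lost without E8.5 replicate 1 or 2 or E9.5 replicate 2 or 3 (adjusted p 0.092 to 0.16).

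The fatty acid genes moved in both directions. In pre-HSC II against HE, Acaca was called higher, and Scd1, Scd2 and Fads1 were called lower, with a median log2 difference over the 8 genes of -0.20. Scd1 and Scd2 are desaturases that make monounsaturated fatty acids, Fads1 makes polyunsaturated ones, and Acaca, acetyl-CoA carboxylase, commits acetyl-CoA to fatty acids.

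Scd1 (mm9 chr19:44468940-44482199) gave 22.1, 5.90 and 24.5 CPM in HE, 2.83, 5.24 and 3.21 CPM in pre-HSC I and 0.115, 0.325 and 0.0958 CPM in pre-HSC II. Each pre-HSC I library was below each HE library, and each pre-HSC II library was below each pre-HSC I library. The log2 difference from HE was -2.22 ± 0.59 in pre-HSC I (edgeR adjusted p = 0.0192) and -6.56 ± 0.76 in pre-HSC II (edgeR adjusted p = 2.29e-07). From pre-HSC I to pre-HSC II it was -4.34 ± 0.72 (edgeR adjusted p = 0.000152). The pre-HSC II libraries held 3, 8 and 2 Scd1 counts, the last under the floor of 3 counts, so that the size of the last 2 differences is imprecise. The call in pre-HSC I was lost without HE replicate 1 or 3 or pre-HSC I replicate 1 or 3 (adjusted p 0.062 to 0.099). In E9.5 pro-HSC/HPC, Scd1 gave 20.7, 11.6 and 21.7 CPM, and pre-HSC I was lower by -2.26 ± 0.59 at an adjusted p of 0.0492. That call was lost without any 1 of the 6 libraries (adjusted p 0.054 to 0.19), and with DESeq2 size factors or the replicate block (adjusted p 0.059 and 0.067).

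Scd2 gave 256, 257 and 294 CPM in HE and 100, 133 and 122 CPM in pre-HSC II. The groups lay far apart for this paralog of Scd1, at a log2 difference of -1.18 ± 0.22 (edgeR adjusted p = 0.000256). In EC, Scd2 rose from 167, 139 and 212 CPM at E8.5 to 279, 290 and 306 CPM at E9.5, by 0.76 ± 0.22 (edgeR adjusted p = 0.0167), a call lost without E8.5 replicate 1 or 2 or E9.5 replicate 3 (adjusted p 0.052 to 0.079).

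Fads1 gave 66.2, 82.8 and 76.5 CPM in HE and 25.2, 30.5 and 40.4 CPM in pre-HSC II. The groups did not overlap, and the log2 difference was -1.23 ± 0.33 (edgeR adjusted p = 0.00831). It lost its call without pre-HSC II replicate 1 (adjusted p 0.055). Acaca gave 19.0, 17.2 and 13.0 CPM in HE and 32.4, 37.9 and 52.6 CPM in pre-HSC II, without overlap, and was the only one of the 35 genes that edgeR called higher in pre-HSC II, at 1.32 ± 0.30 (edgeR adjusted p = 0.00168). Fasn, the fatty acid synthase, averaged 52.4 CPM in HE and 102 CPM in pre-HSC II and was not called by edgeR with all libraries. It was called higher by DESeq2 (log2 difference 0.94, adjusted p 0.0357), without the count filter (adjusted p 0.0411) and with only the compared groups (adjusted p 0.0140).

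Of the 5 transport, efflux and storage genes, edgeR called 4 in at least 1 pair comparison. Npc1 was not called with all libraries, while in E8.5 HE against EC it was called higher by DESeq2 (log2 difference 1.47, adjusted p 0.0237) and without EC replicate 2 (2.24, adjusted p 0.0195). Soat1 stores cholesterol as esters, and Abca1 and Abcg1 export it to lipoproteins. Stard4 carries cholesterol between membranes.

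Soat1 (mm9 chr1:158358239-158404459) fell from E9.5 to E10.5 in both EC and HE and was lower again in the pre-HSC populations. It gave 211, 184 and 287 CPM in E8.5 EC, 159, 188 and 142 CPM in E9.5 EC, and 103, 69.6 and 69.2 CPM in E10.5 EC. In HE it gave 209, 155, 240 and 275 CPM at E8.5, 189, 182 and 170 CPM at E9.5, and 100, 89.2 and 95.9 CPM at E10.5. Within both lineages the E10.5 libraries were below all of the earlier ones, and the E9.5 and E8.5 libraries overlapped. The step from E9.5 to E10.5 was -1.02 ± 0.22 in EC (edgeR adjusted p = 0.0242) and -0.92 ± 0.22 in HE (edgeR adjusted p = 0.0156). The EC call was lost without E9.5 replicate 1 or 2 or E10.5 replicate 2 or 3 (adjusted p 0.071 to 0.15) and with only the compared groups (adjusted p 0.055), and the HE call without E9.5 replicate 1 or E10.5 replicate 2 or 3 (adjusted p 0.052 to 0.083).

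Within E10.5, Soat1 gave 50.2, 36.8 and 48.8 CPM in pre-HSC I and 27.7, 29.97 and 27.5 CPM in pre-HSC II, so that the 3 E10.5 populations followed in order without overlap, HE highest. The log2 difference from HE was -1.07 ± 0.22 in pre-HSC I (edgeR adjusted p = 0.00257) and -1.75 ± 0.22 in pre-HSC II (edgeR adjusted p = 1.17e-06). In pro-HSC/HPC it gave 128, 150 and 120 CPM, and pre-HSC I was lower by -1.55 ± 0.22 (edgeR adjusted p = 0.000258). These 3 calls held in each alternative.

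Abca1 (mm9 chr4:53043661-53172767) gave 3.79, 1.02 and 9.84 CPM in E8.5 EC and 9.47, 9.64, 49.1 and 34.7 CPM in E8.5 HE. These groups overlapped, since 2 HE libraries lay just under the highest EC library, and the log2 difference was 2.42 ± 0.59 (edgeR adjusted p = 0.0112). The call was lost without EC replicate 1 or 2 or HE replicate 3 (adjusted p 0.054 to 0.057), and with only the compared groups (adjusted p 0.18). By E9.5, EC gave 27.2, 12.5 and 40.9 CPM, higher than at E8.5 by 2.48 ± 0.61 (edgeR adjusted p = 0.00543). In E10.5 HE it gave 41.1, 46.0 and 37.0 CPM and in pre-HSC II 6.01, 6.995 and 3.35 CPM, without overlap, for a log2 difference of -2.92 ± 0.62 (edgeR adjusted p = 0.000879).

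Abcg1 (mm9 chr17:31194639-31254926) gave 21.2, 16.1 and 38.2 CPM in E8.5 EC and 101, 53.7, 139 and 140 CPM in E8.5 HE, without overlap. The log2 difference was 2.11 ± 0.42 (edgeR adjusted p = 0.00215), and it held in all 12 alternatives. In EC at E9.5 it gave 103, 168 and 98.1 CPM, higher than at E8.5 by 2.29 ± 0.44 (edgeR adjusted p = 0.000704). In HE it went from 133, 276 and 153 CPM at E9.5 to 66.3, 65.8 and 52.3 CPM at E10.5, lower by -1.61 ± 0.43 (edgeR adjusted p = 0.0339), a call lost without E9.5 replicate 2 or 3 or any 1 of the E10.5 replicates (adjusted p 0.057 to 0.16). Between HE and pre-HSC II it was not called.

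For both efflux transporters the HE-EC difference itself changed between E8.5 and E10.5, a comparison with 2.99% of all genes called and 2.11% called lower. These were the 2 called of the 35. The change was -3.06 ± 0.81 for Abca1 (edgeR adjusted p = 0.035) and -3.23 ± 0.60 for Abcg1 (edgeR adjusted p = 0.00156). The Abcg1 call held in all 18 alternatives, while the Abca1 call was lost in 11 of them (adjusted p 0.053 to 0.15), among them the runs without E8.5 EC replicate 1 or 2, E8.5 HE replicate 3 or 4, E10.5 EC replicate 2 or 3, or any 1 of the E10.5 HE replicates. At E10.5 itself the HE-EC difference of Abcg1 was -1.12 and that of Abca1 was -0.65, and neither was called. No gene of the 35 was called in the other differences of differences: E9.5 minus E8.5 (0.847% of all genes called, 2 at an unadjusted p under 0.05, DESeq2 0), E10.5 minus E9.5 (0.0131%, 1, DESeq2 0), and pre-HSC I minus HE at E10.5 less pro-HSC/HPC minus HE at E9.5 (0.0722%, 9, DESeq2 2). In E9.5 minus E8.5, 1375 of the 15238 genes were at that unadjusted level. The numbers over all genes are not given here for the others, so their counts cannot be read against a share.

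Stard4 was lower in pre-HSC II, at 25.8, 18.5 and 19.3 CPM against 55.4, 35.2 and 45.4 CPM in HE. The groups did not overlap, and the log2 difference was -1.10 ± 0.27 (edgeR adjusted p = 0.00409). It was higher in E9.5 HE, at 36.1, 38.7 and 50.9 CPM, than in E8.5 HE, at 21.4, 31.5, 26.4 and 15.7 CPM, by 0.82 ± 0.25 (edgeR adjusted p = 0.0475). The days did not overlap, and the call was lost without E8.5 replicate 1 or 4 or any 1 of the E9.5 replicates (adjusted p 0.063 to 0.23), and was at 0.073 to 0.12 without the count filter, with the replicate block or with only the compared groups.

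**Figure D4:**
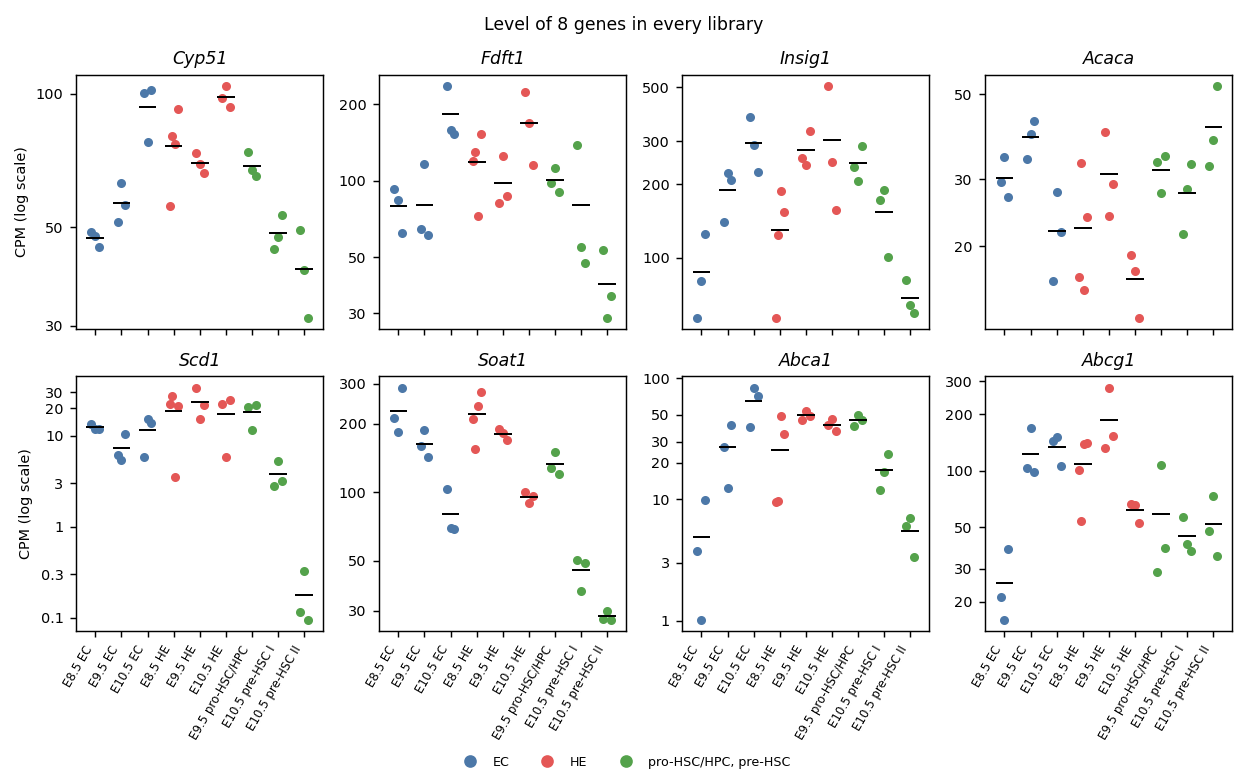
CPM (log scale, with its own range in each panel) of 8 genes in every library (points) and the mean of each population (bars), across 9 populations. Scd1 and Soat1 are lowest in pre-HSC II, Acaca is lowest in E10.5 HE and highest in pre-HSC II, and Abca1 and Abcg1 are lowest in E8.5 EC.

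Among 59 other genes of these pathways, kept as 4 lists by role, 58 were tested, and Thrsp was not. In pre-HSC II against HE, 3 were called higher and 6 lower, 15.5% of those tested, which is below the 21.4% of all genes. The 9 were 1 of 12 genes of isoprenoid and other sterol steps, 5 of 18 of fatty acid and phospholipid synthesis, and 3 of 14 of sterol uptake, transport and storage. The 14 genes of SREBP and LXR control were not called by edgeR in that comparison, with 3 at an unadjusted p under 0.05. Of all 15238 genes, 5057 reached that unadjusted level. In E9.5 EC against E8.5 EC 16 of the 58 were called, 6 higher and 10 lower, 27.6% against 19.7% of all genes. In E8.5 HE against EC 5 were called, 8.62% against 6.81%, which included Lipa, Plin2 and Elovl7, each higher, and Pdss1, lower, these names being given after the values were seen. The remaining call was 1 of the 14 genes of SREBP and LXR control, higher in HE. In pre-HSC I against HE Pdss1 and Abca2 were higher and Elovl5 and Lipa lower, at E10.5 Lipa was higher and Pdss1 lower in HE than in EC, and in pre-HSC II against pre-HSC I Agpat3 and Lipa were lower. Lipa, the lysosomal lipase that frees cholesterol from its esters, averaged 220 CPM ± 34.8 in E10.5 HE, 92.0 CPM ± 14.7 in pre-HSC I and 47.4 CPM ± 4.55 in pre-HSC II (SD, n = 3 each). Its log2 difference from HE was -2.21 in pre-HSC II (edgeR adjusted p = 1.73e-06). Elovl5, an elongase of polyunsaturated fatty acids, went from 195 CPM ± 29.97 to 47.0 CPM ± 7.49 between the same populations (log2 difference -2.05, edgeR adjusted p = 2.03e-06). Agpat3, an acyltransferase of phospholipid synthesis, went from 18.7 CPM ± 6.27 to 2.15 CPM ± 0.721 (log2 difference -3.12, edgeR adjusted p = 9.51e-05). Pdss1, which builds the side chain of coenzyme Q, went the other way, from 5.92 CPM ± 0.428 to 16.6 CPM ± 5.36 (log2 difference 1.49, edgeR adjusted p = 0.00155).

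Across the 28 libraries, log2 CPM of the sterol enzymes correlated weakly to moderately. The median Pearson correlation was 0.38 over 136 pairs, with a range from -0.35 to 0.84, and the median was 0.23 for deviations from the population means. The highest pair was Idi1 with Msmo1 at 0.84, and Insig1 with Abca1 reached 0.81. For deviations from the population means these pairs had 0.81 and 0.30. Against the mean of the other sterol enzymes, Fdft1 had 0.91, Nsdhl 0.87 and Cyp51 0.79, while Srebf1 had -0.15, Srebf2 0.19 and Acaca -0.65. For deviations, Fdft1 had 0.86, Nsdhl 0.75 and Cyp51 0.28, while Srebf1 had -0.33, Srebf2 -0.08 and Acaca -0.14. The libraries share populations, depth and scaling, and these values are descriptions.

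Part of the spread followed the replicate number within a day. At E9.5 replicate 2 was the highest of the 3 libraries in every population for 10 of the 35 genes, 8 of them sterol enzymes. At E10.5 replicate 1 was the highest in every population for 7, of which 5 were sterol enzymes. Replicate 3 was highest in this way for 4 genes at E9.5, none a sterol enzyme, and at E10.5 replicate 2 was for 2 genes and replicate 3 for 1. The share of all tested genes with such an order was not counted, so whether it is particular to these genes is not known. Scaling factors of the E10.5 replicate 1 libraries were 0.924 to 0.987, against 1.08 to 1.25 in the other E10.5 libraries, and their part in the pattern was not tested.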

How the data were processed

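The authors deposited raw counts per gene symbol with mm9 exon coordinates, in the column layout of featureCounts per the file headers. The submitters' processing notes name TopHat, SAMtools, Subread, featureCounts 1.6.2 and mm9. Per the labels' protocols, cells went from the sorter into lysis buffer and poly(A) RNA was amplified with the SMARTer Ultra Low Input kit. Whether strand was used, how reads with several matches were handled, and which annotation release was taken: not given in the sources used here. Values for paralogs (Scd1 and Scd2, Acat2 and its near copy) and for genes with overlapping exons (Fdft1 with Ctsb, Npc1, Srebf1, Lss, Tm7sf2 and Scd2 with short overlaps) are therefore uncertain.

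The tests used edgeR 4.0.16 in R 4.3.3. filterByExpr with a minimum count of 10 left 15238 of 24015 genes. After TMM scaling, all 28 libraries entered 1 quasi-likelihood fit with a term for each population. The threshold was 0.05 on the Benjamini-Hochberg adjusted p, the standard error is the log2 difference divided by the square root of F, and CPM uses the same scaling. The model was run on simulated counts of independent libraries, with 200 genes of at least 10 CPM changed between E9.5 HE and EC. Such a run says nothing about genes with low counts or libraries that deviate together. Correlation between replicates, across genes, ran from 0.942 to 0.981 in log2 CPM. All pairs differed by more than sampling noise, with a lowest chi-square per degree of freedom of 40.3. Floors state counting error alone, as amplified reads can be copies of 1 molecule.

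The genes, the 4 roles, the other pathway lists and the marker lists were chosen with earlier results of these data known. Values per library are given for up to 8 called genes per comparison by smallest p, with the remaining called genes added, and for the 4 other pathway genes with the smallest p in comparisons within a day. Replicate numbers in the labels were taken to pair libraries where same-numbered libraries deviated together with every correlation over 0.1. This held for HE and EC at E8.5 (0.174 to 0.215) and E9.5 (0.105 to 0.279) and for pro-HSC/HPC and HE (0.135 to 0.344). Alternatives were DESeq2 1.42.0, DESeq2 size factors, no count filter, the replicate block, only the compared groups, and leaving out each library. The block held an effect for each replicate number, shared by all days. Number 4 occurs only in E8.5 HE, so the block also takes that library out of every comparison with E8.5 HE. Promoter windows came from RefSeq (GRCm38.p6), and no coordinates were moved between builds.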

Additional observations from a re-analysis of the deposited data

Results flagged for a closer look

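Results are listed here where 1 library of E8.5 HE stood far from the other 3, or where the difference between HE and EC changed between days by a test of that change. Among the 35 tested genes in the 4 libraries of E8.5 HE, 2 had such a library, by a gap to the nearest library, divided by the whole range, above Dixon's 95% critical value for 4 samples. Chance alone flags about 1 in 20 groups.

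Fads2, a desaturase of polyunsaturated fatty acids, gave 2.17, 9.72, 1.95 and 1.61 CPM in E8.5 HE, and replicate 2 stood apart with a gap of 0.931 of the range. Npc1 gave 11.7, 12.1, 24.1 and 13.2 CPM, and replicate 3 stood apart with a gap of 0.881 of the range. Neither gene was called by edgeR with all libraries in E8.5 HE against EC. Npc1 was called there by DESeq2 (log2 difference 1.47, adjusted p 0.0237) and without EC replicate 2 (2.24, adjusted p 0.0195).

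The HE-EC difference at E10.5 minus that at E8.5 was -3.06 on the log2 scale for Abca1 and -3.23 for Abcg1. For Abcg1, HE was above EC at E8.5 in all libraries and below it at E10.5 in all libraries. For Abca1 the libraries of HE and EC overlapped on both days.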

How the results depend on the processing

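Of the 42 calls of these genes over the 16 comparisons, 22 held in every alternative run and none changed direction. DESeq2 size factors in place of TMM moved the median of all genes by no more than 0.043 on the log2 scale. Depth limits Scd1 in pre-HSC II, where 13 counts were summed, and Hmgcs1 was not measured.

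With only the compared groups in the model, the number of these genes called went from 5 to 1 (Abcg1) in E8.5 HE against EC, from 0 to 1 in E10.5 HE against EC, from 2 to 4 in pre-HSC II against pre-HSC I, from 2 to 0 in E9.5 against E8.5 HE, from 1 to 0 in E10.5 against E9.5 EC, and from 2 to 1 in the HE-EC difference at E10.5 minus E8.5. DESeq2 gave 1 in place of 0 in pro-HSC/HPC against HE, 7 in place of 4 in pre-HSC I against HE, 5 in place of 2 in pre-HSC II against pre-HSC I, E9.5 against E8.5 HE and E10.5 against E9.5 HE, 5 in place of 1 in E10.5 against E9.5 EC, and 2 in place of 0 in pre-HSC I against HE at E10.5 less pro-HSC/HPC against HE at E9.5. No count filter gave 1 in place of 0 in pro-HSC/HPC against HE and 1 in place of 2 in E9.5 against E8.5 HE. In pre-HSC I against pro-HSC/HPC, DESeq2 size factors gave 1 in place of 2, as did leaving out the 2 hemoglobin-rich libraries. That run leaves 1 library of pro-HSC/HPC, whose spread is taken from the other populations, and says nothing about hemoglobin. The cause of these changes was not tested, beyond the fewer samples that some runs hold.

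With the replicate block, 0 in place of 2 were called in E9.5 against E8.5 HE, 1 in place of 2 in the HE-EC difference at E10.5 minus E8.5, and 1 in place of 0 in the pre-HSC I less pro-HSC/HPC difference. Only E8.5 HE has a replicate 4, so the block fits that library exactly. Every comparison with E8.5 HE under the block therefore also leaves that library out, and the 2 changes cannot be told apart. The block shared its effects over all days, whereas same-numbered libraries of different days correlated at -0.165 to 0.142 in HE and -0.121 to 0.0199 in EC. It therefore did not model pairs within a day, and neither did the main fit, so the calls were not tested with that pairing. In the comparisons whose numbers pair the libraries, the block changed no call other than that of Cyp51 at E8.5. Its log2 difference was 0.59 (edgeR adjusted p 0.069) with the block and 0.60 (adjusted p 0.067) without E8.5 HE replicate 4 alone. In the others at least 1 correlation of same-numbered libraries was not over 0.1, with the lowest per comparison from -0.165 to 0.0853, so the number was not taken to pair them. As a hint from the data, all 3 numbers correlated best with themselves in E10.5 HE against EC and in pre-HSC II against pre-HSC I. Outside the paired comparisons the block gave 6 in place of 4 in pre-HSC I against HE, with Fdft1 and Scd2 gained, 17 in place of 16 in pre-HSC II against HE, 3 in place of 2 in E10.5 against E9.5 HE and 7 in place of 6 in E9.5 against E8.5 EC.

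Leaving out 1 library gave 1 to 6 calls in E8.5 HE against EC, 0 to 1 in pro-HSC/HPC against HE, 3 to 6 in pre-HSC I against HE, 13 to 16 in pre-HSC II against HE, and 1 in each run of pre-HSC II against pre-HSC I and of pre-HSC I against pro-HSC/HPC. Between days it gave 0 to 5 in E9.5 against E8.5 HE, 0 to 1 in E10.5 against E9.5 HE, 3 to 8 in E9.5 against E8.5 EC, 0 to 1 in E10.5 against E9.5 EC, and 1 to 2 in the HE-EC difference at E10.5 minus E8.5.

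Counts over all genes moved by more than 1.5 times in these runs. DESeq2 called 1753 in place of 1038 genes in E8.5 HE against EC, 174 in place of 46 at E9.5, 974 in place of 530 at E10.5, 227 in place of 100 in pro-HSC/HPC against HE, 1645 in place of 1049 in pre-HSC I against HE, 511 in place of 221 in pre-HSC I against pro-HSC/HPC, 1804 in place of 997 in E9.5 against E8.5 HE, 1092 in place of 555 in E10.5 against E9.5 HE, and 443 in place of 116 in E10.5 against E9.5 EC. For the HE-EC differences it called 308 in place of 129 (E9.5 minus E8.5), 44 in place of 2 (E10.5 minus E9.5) and 845 in place of 455 (E10.5 minus E8.5), and for the blood difference 209 in place of 11. With only the compared groups the counts were 191 in E8.5 HE against EC, 140 at E9.5, 201 in pro-HSC/HPC against HE, 469 and 950 for the later against the earlier HE at E9.5 and E10.5, 75 and 238 for the HE-EC differences from E8.5 to E9.5 and E10.5, and 81 for the blood difference. No count filter gave 100 at E9.5, 155 in pro-HSC/HPC against HE, 10 for E10.5 minus E9.5 and 30 for the blood difference, the block gave 0 and 34 for the last 2, and the run with 1 library of pro-HSC/HPC gave 24 in both of its comparisons. Without 1 library, the lowest counts were 582 in E8.5 HE against EC, 11 at E9.5, 284 at E10.5, 50 in pro-HSC/HPC against HE, 512 in pre-HSC I against HE, 57 in pre-HSC I against pro-HSC/HPC, 264 and 210 in HE between days, and 1714 and 26 in EC between days.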
